A study of Mus musculus with 8 samples.

Results

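The genes described here carry out the steps by which the ovary takes in cholesterol, turns it into progesterone and then inactivates the hormone. They were chosen by name, as the probes whose gene symbol in the platform annotation was Scarb1, Star, Tspo, Cyp11a1, Fdx1, Fdxr, Hsd3b1 or Akr1c18. Of these 8 genes 7 had a probe, 1 each, among the 18069 genes named on the array, and none was named for Fdxr, the reductase that passes electrons from NADPH to ferredoxin. RNA came from 1 ovary of each of 8 female Lethal Yellow mice (LY, C57BL/6J Ay/a), heterozygous for an agouti allele that leads to obesity and insulin resistance with age. Vehicle (DMSO, n = 4 mice) or pioglitazone in DMSO (n = 4 mice), a thiazolidinedione that activates PPARγ, was given by gavage once a day for 60 days from the age of 120 days, and ovaries were taken at 180 days. The deposit's design text gives 0.1 mg of pioglitazone a day, and the study's methods state a smaller dose. All animals carried the Ay allele and came from 1 breeding colony, and lean mice were not analysed here. The stage of the estrous cycle at tissue collection was not given in the sources used here.

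Progesterone is made in steroidogenic cells, in the mouse ovary above all in the corpora lutea that form after ovulation. Cholesterol enters through SCARB1, the receptor for high density lipoprotein, and STAR moves it to the inner mitochondrial membrane. There CYP11A1 cuts the side chain with electrons that ferredoxin (FDX1) delivers, and HSD3B1 converts the resulting pregnenolone to progesterone. AKR1C18, 20α-hydroxysteroid dehydrogenase, inactivates progesterone and is known as a gene of regressing corpora lutea. TSPO, a cholesterol-binding protein of the outer mitochondrial membrane, has been linked to the import step.

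For 3 of the genes, the 250 bases before a RefSeq start are given (GRCm38.p6, gene strand). Cyp11a1 and Akr1c18 were taken because both were lower with pioglitazone in all 4 pairs of mice with the same number, and Fdx1 because it ran apart from them. Capitals mark the letters searched for. These were CAAGGNNA, the core bound by NR5A receptors, and AGGTCA, a half-site of nuclear receptors, on both strands, and TATAA on the gene strand. The sequences lie at chr9:58014702-58014951 (+), chr13:4150647-4150896 (-) and chr9:51963603-51963852 (-).
Cyp11a1: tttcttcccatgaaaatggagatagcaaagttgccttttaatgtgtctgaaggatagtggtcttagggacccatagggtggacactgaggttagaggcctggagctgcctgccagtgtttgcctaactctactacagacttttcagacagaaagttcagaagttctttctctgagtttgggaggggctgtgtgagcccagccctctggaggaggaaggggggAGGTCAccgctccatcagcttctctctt
Akr1c18: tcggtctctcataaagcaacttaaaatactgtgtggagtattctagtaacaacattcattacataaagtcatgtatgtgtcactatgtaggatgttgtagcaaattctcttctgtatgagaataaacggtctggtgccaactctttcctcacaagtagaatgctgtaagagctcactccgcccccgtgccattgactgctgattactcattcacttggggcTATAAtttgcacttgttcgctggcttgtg
Fdx1: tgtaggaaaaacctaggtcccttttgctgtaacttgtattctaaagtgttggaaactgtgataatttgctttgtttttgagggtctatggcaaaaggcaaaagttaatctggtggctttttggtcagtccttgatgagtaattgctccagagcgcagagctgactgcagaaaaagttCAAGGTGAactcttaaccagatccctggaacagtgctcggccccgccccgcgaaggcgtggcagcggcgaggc
The Cyp11a1 window held 1 AGGTCA, from base -28 to base -23 before the start. The Akr1c18 window held 1 TATAA, from -29 to -25, and the Fdx1 window 1 CAAGGNNA, from -73 to -66. Of 32851 RefSeq windows of 250 bases, 14.0% held AGGTCA, 16.0% TATAA and 15.4% CAAGGNNA. A match is a description of the letters and not of a bound site. RefSeq windows were at hand for 5 of the 8 genes, and a window before another Cyp11a1 start and that of Fdxr held none of the letters. Of the 2 Cyp11a1 windows, the one shown is thus the one that held a match. The Hsd3b1 window held 1 CAAGGNNA, on the opposite strand.

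The values are linear intensities in relative intensity units, in which the median probe of an array is at 1 and the limit of sensitivity is 0.2. The 8 arrays held 36227 probes with 47 to 211 missing spots, and log2 values of different arrays correlated across probes at 0.937 to 0.989. Ovarian tissue was present in every sample by its oocyte genes, with a probe for 10 of 10 listed (Gdf9, Zp3 and others) and a summed level of 69.8 to 108 in vehicle-treated and 72.0 to 123 in pioglitazone-treated mice. Adrenal cortex, which also makes progesterone, was checked with 3 markers that had a probe, and their summed level stayed between 0.504 and 0.898. All 7 probes were above 0.2 on every array. The table marks no saturated spots, so compression of the bright Hsd3b1 and Fdx1 signals was not tested.

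Uptake of cholesterol came first. Scarb1 was at 5.15, 6.56, 7.29 and 7.49 relative intensity units in vehicle mice 1 to 4 and at 1.68, 6.15, 6.83 and 3.59 in pioglitazone mice 1 to 4. Pioglitazone mice 1 and 4 lay below every vehicle mouse, while mice 2 and 3 lay among them. The means were 6.62 ± 1.06 and 4.56 ± 2.38 (SD, n = 4 each), a ratio of 0.689. The log2 fold change in limma was -0.72 (standard error 0.40, 95% confidence interval -1.62 to 0.19).

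Star, the transport protein whose supply sets the rate of acute steroid synthesis, was at 22.8, 36.7, 40.4 and 10.3 relative intensity units in vehicle mice 1 to 4. In pioglitazone mice 1 to 4 it was at 6.40, 14.2, 39.6 and 7.08. The groups overlapped widely, since pioglitazone mouse 3 was close to the highest vehicle mouse and vehicle mouse 4 was lower than pioglitazone mouse 2. The means of 27.5 ± 13.8 and 16.8 ± 15.6 (SD, n = 4 each) had a ratio of 0.611, and the log2 fold change was -0.94 (standard error 0.62, 95% confidence interval -2.33 to 0.45). Tspo was at 13.6, 25.5, 23.1 and 11.6 in vehicle mice and at 11.9, 8.55, 18.5 and 12.6 in pioglitazone mice. Vehicle mice 2 and 3 were higher than all others, and the remaining values of both groups were mixed. Its log2 fold change was -0.49 (standard error 0.31, 95% confidence interval -1.2 to 0.21).

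Cyp11a1, which catalyses the first enzymatic step, was at 30.05, 67.6, 68.2 and 46.1 relative intensity units in vehicle mice 1 to 4 and at 10.7, 41.7, 59.4 and 23.7 in pioglitazone mice 1 to 4. Mice of each group stood in the same order, with 3 highest, then 2, 4 and 1. The means were 53.0 ± 18.4 and 33.9 ± 21.2 (SD, n = 4 each). Its log2 fold change was -0.83 (standard error 0.50, 95% confidence interval -1.96 to 0.29). Fdx1, its electron donor, was at 227, 216, 146 and 168 in vehicle mice and at 223, 148, 176 and 131 in pioglitazone mice. In Fdx1 mouse 1 was the highest of both groups, whereas mouse 1 was the lowest in Cyp11a1. The log2 fold change of Fdx1 was -0.17 (standard error 0.21), and its 95% interval of -0.65 to 0.32 holds changes from 0.639-fold to 1.24-fold.

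Hsd3b1, the enzyme that forms progesterone, was at 218, 225, 242 and 197 relative intensity units in vehicle mice 1 to 4 and at 113, 171, 215 and 203 in pioglitazone mice 1 to 4. It varied least among the vehicle mice, by 1.23-fold from the lowest to the highest, and pioglitazone mouse 1, then mouse 2, lay below every vehicle mouse. The means of 220.5 ± 18.4 and 176 ± 45.7 (SD, n = 4 each) had a ratio of 0.797. The log2 fold change was -0.37 (standard error 0.21, 95% confidence interval -0.84 to 0.11), and without pioglitazone replicate 1 it was -0.17.

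Akr1c18, the inactivating enzyme, was at 0.674, 36.2, 12.8 and 1.62 relative intensity units in vehicle mice 1 to 4 and at 0.578, 11.6, 5.27 and 0.910 in pioglitazone mice 1 to 4. In each group mice 2 and 3 were high and mice 1 and 4 were low, and the order (2, 3, 4, 1) was identical. The highest vehicle mouse was 53.8-fold above the lowest and the highest pioglitazone mouse 20.1-fold. The within-group SD of 2.37 on the log2 scale was exceeded by 0.0261% of all probes tested. Star (1.44%), Cyp11a1 (3.35%) and Scarb1 (7.07%) were also among the probes that varied most between mice of a group, while 44.8% of probes varied more than Hsd3b1 and 42.9% more than Fdx1. The means of Akr1c18 were 12.8 ± 16.5 and 4.59 ± 5.14 (SD, n = 4 each). Its log2 fold change of -0.99 had a standard error of 1.35 and a 95% confidence interval of -4.03 to 2.05. With 1 mouse left out it ran from -1.93 (without vehicle replicate 1) to -0.01 (without vehicle replicate 2), and with array weights it turned to 0.44.

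**Figure D1:**
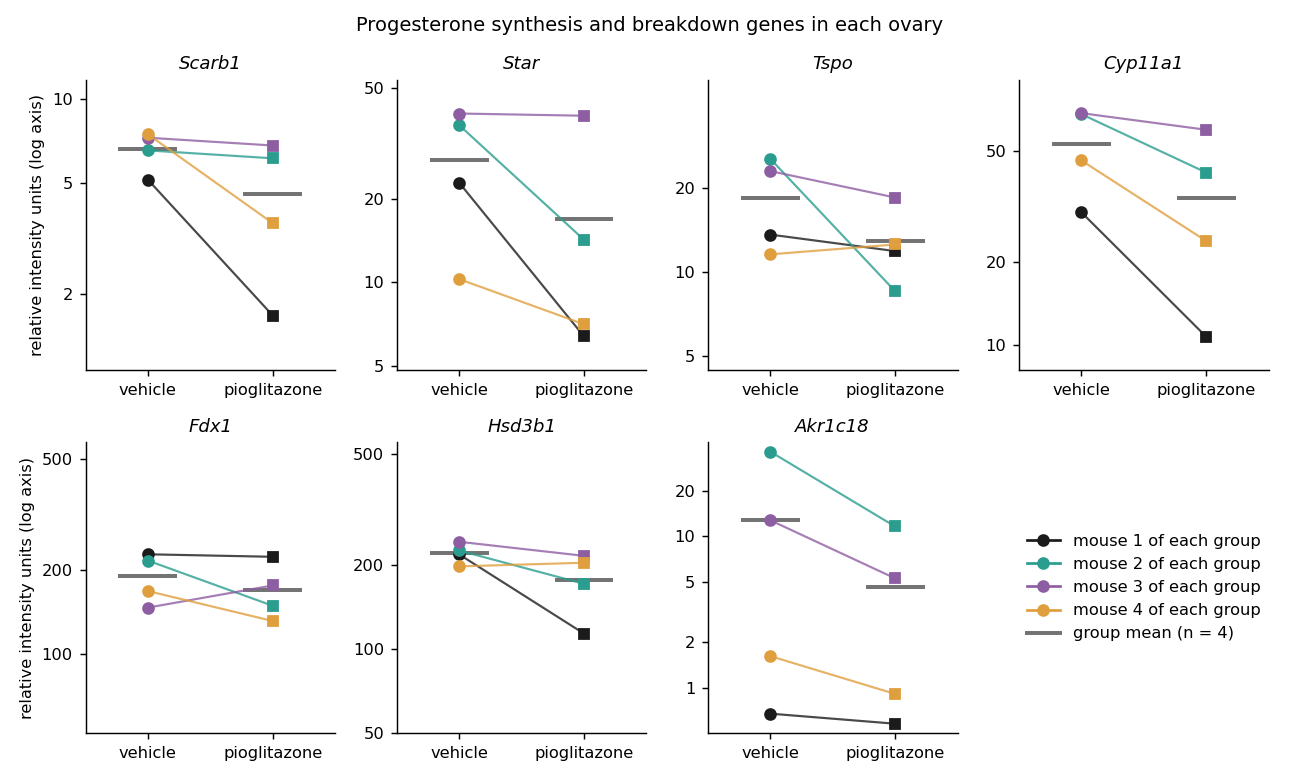
Relative intensity units (log axes) of the 7 genes in the ovary of each LY mouse, with circles for vehicle, squares for pioglitazone, lines joining mice with the same replicate number and grey bars for arithmetic group means (n = 4). The 4 lines of Scarb1, Star, Cyp11a1 and Akr1c18 all run downward, and Akr1c18 spans 0.578 to 36.2.

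**Figure D2:**
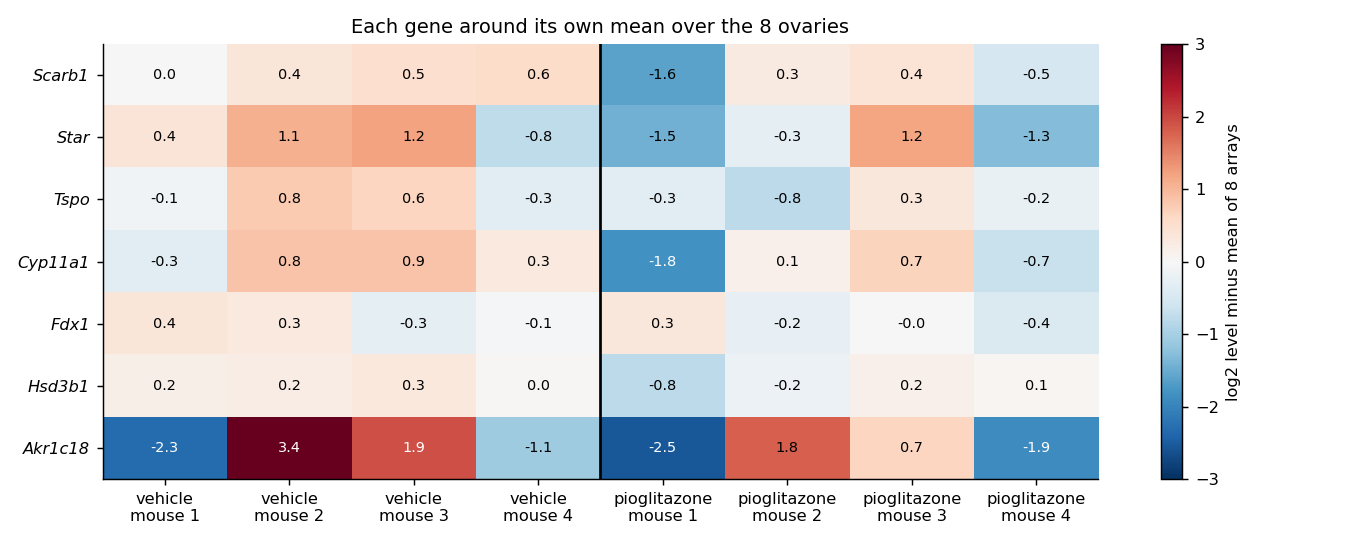
Log2 level of each gene in each ovary minus the mean of that gene over the 8 arrays, printed in the cells and coloured on a scale from -3 to 3. Akr1c18 differs most between mice, high in mice 2 and 3 of both groups, and Fdx1 and Hsd3b1 differ least.

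All 7 genes had a negative log2 fold change with pioglitazone, with a median of -0.72, where 55.7% of the 30634 probes tested were negative with a median of -0.03. No gene reached an unadjusted p of 0.05 in limma (5.50% of all probes did, and 3.53% as lower), and in each the 2 groups overlapped (4.59% of all probes did not overlap). The adjusted p lay between 0.842 (Scarb1) and 0.914 (Akr1c18). Unadjusted p lay between 0.107 and 0.480 in limma, and exact permutation of the mice between groups (70 assignments, 2-sided) gave p from 0.114 (Hsd3b1) to 0.543 (Akr1c18), with 0.0286 the smallest it allows. No probe at all passed an adjusted p of 0.05 in limma, while 1685 had an unadjusted p under 0.05. The sign of the 7 genes was negative under quantile and cyclic loess normalization and without further scaling, although Fdx1 came to -0.03 with cyclic loess and Hsd3b1 to -0.23 with either. With array weights, which give less weight to arrays far from the rest, the differences shrank to -0.14 for Star, -0.34 for Cyp11a1, -0.38 for Scarb1, -0.32 for Tspo and -0.20 for Hsd3b1, Fdx1 was at -0.24 and Akr1c18 turned to 0.44.

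Arrays with the same replicate number correlated over 0.1 across probes once group means were removed, although vehicle mouse 2 was closer to pioglitazone mouse 3 than to mouse 2. The labels do not say what a shared number means, so the pairs rest on these correlations in the same data. Within these pairs the genes were lower in 25 of 28 comparisons. These comparisons are not independent, since all genes were measured in the same mice and only the 4 pairs are replicates. Star, Cyp11a1, Akr1c18 and Scarb1 were lower in all 4 pairs, as were 12.9% of all probes. Akr1c18 was at 0.858, 0.320, 0.413 and 0.563 of the paired vehicle mouse in pairs 1 to 4. Cyp11a1 was at 0.358, 0.617, 0.872 and 0.514, and Star at 0.281, 0.388, 0.982 and 0.688. Star and Cyp11a1 thus differed least in pair 3, and Akr1c18 least in pair 1. Scarb1 was at 0.325, 0.937, 0.938 and 0.480. Tspo and Hsd3b1 were higher in pair 4 (1.09 and 1.03) and Fdx1 in pair 3 (1.2). The number of genes lower was 7 in pair 1, 7 in pair 2, 6 in pair 3 and 5 in pair 4, where between 50.6% and 57.3% of all probes were lower.

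With the replicate number as a block in limma, 4 of the 7 genes had an unadjusted p under 0.05, all lower, where 8.60% of all probes did and 5.20% as lower. The unadjusted p was 0.00448 for Akr1c18, 0.0067 for Cyp11a1, 0.0162 for Star and 0.0383 for Scarb1. The standard error of Akr1c18 was 0.24 with the block and its 95% confidence interval ran from -1.56 to -0.43, that is from 0.339-fold to 0.745-fold. For Cyp11a1 the interval was -1.35 to -0.32, for Star -1.65 to -0.24 and for Scarb1 -1.38 to -0.05. No gene passed with adjustment over all probes, with an adjusted p of 0.575 for these 4 and up to 0.751 for Fdx1. Akr1c18 and Cyp11a1 stayed under 0.05 with any 1 pair left out, with log2 fold changes of -1.25 to -0.78 and -1.05 to -0.62. Star did not without pair 1 (-0.64) or pair 2 (-0.80), nor did Scarb1 without pair 1 (-0.42) or pair 4 (-0.60). With the block and quantile normalization Cyp11a1 was no longer under 0.05 (-0.61), and with the block and cyclic loess normalization Scarb1 was not (-0.64). The fits with a left-out pair or another normalization were made after seeing the data. The share of all probes under 0.05 in those fits was not computed.

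**Figure D3:**
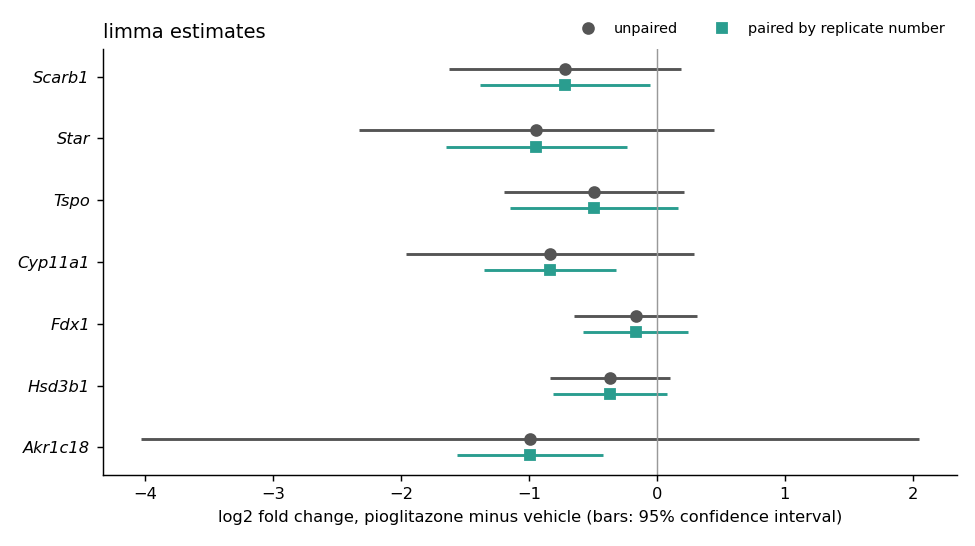
Log2 fold change (pioglitazone minus vehicle, horizontal axis) of each gene in limma with its 95% confidence interval, without pairing (circles) and with pairs as a block (squares). The interval of Akr1c18 narrows from -4.03 to 2.05 without pairing to -1.56 to -0.43 with it, and the paired intervals of Scarb1, Star, Cyp11a1 and Akr1c18 lie below 0.

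Pioglitazone mouse 1 was the lowest of all 8 mice in 5 of the 7 genes, namely Scarb1, Star, Cyp11a1, Hsd3b1 and Akr1c18. The same ovary had the highest summed level of 7 adipocyte markers with a probe, of 10 listed, at 127 against 15.9 to 38.0 in the other pioglitazone mice and 27.2 to 69.7 in vehicle mice. Adipoq was at 40.2 there and between 1.54 and 10.7 elsewhere. Without this mouse the log2 fold changes were -0.30 for Scarb1, -0.61 for Star, -0.47 for Tspo, -0.37 for Cyp11a1, -0.31 for Fdx1, -0.17 for Hsd3b1 and -0.31 for Akr1c18. All remained negative, and those of Scarb1, Star, Cyp11a1, Hsd3b1 and Akr1c18 were smaller by more than 1.5 times, while that of Fdx1 was larger. The part of fat tissue in the result was not tested. Pioglitazone mouse 3 had the highest Star, Cyp11a1 and Scarb1 of its group. Without it the log2 fold changes were -1.49 for Star, -1.19 for Cyp11a1 and -0.98 for Scarb1. Leaving out the highest mouse of the pioglitazone group was bound to lower these values.

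Luteal markers did not share 1 pattern over mice. Of 10 luteal markers 7 had a probe, none was called and 5 had a negative log2 fold change, with a median of -0.30 and a range from -0.89 (Cdkn1a) to 0.53 (Akr1cl). Ptgfr, the receptor through which prostaglandin F2α ends luteal function, was at 0.368, 5.43, 1.81 and 0.632 relative intensity units in vehicle mice 1 to 4 and at 0.315, 6.48, 3.78 and 0.255 in pioglitazone mice 1 to 4. Sfrp4, a secreted WNT antagonist of luteal cells, was at 3.75, 19.8, 16.5 and 5.42 and at 5.55, 39.4, 18.5 and 3.10. As in Akr1c18, mice 2 and 3 of both groups were above mice 1 and 4 in Ptgfr and Sfrp4, which were picked out for it. The other 5 luteal markers (Hsd17b7, Parm1, Cdkn1a, Timp1 and Akr1cl) did not have this order in both groups. Parm1, Cdkn1a and Timp1 had it among vehicle mice only, and Hsd17b7 and Akr1cl in neither group. Unlike Akr1c18, Ptgfr and Sfrp4 were higher with pioglitazone in pairs 2 and 3. The summed level of the luteal list was 92.2 to 138 in vehicle and 76.9 to 160 in pioglitazone mice. Much of this sum was Akr1cl, with 97.9 of 120 in vehicle mouse 1 and 142 of 160 in pioglitazone mouse 4, though 18.3 of 92.2 in vehicle mouse 3. The sum thus says little about the other luteal markers. In ovarian RNA fewer cells of a type and less RNA per cell cannot be told apart, and the part of luteal tissue in the result was not tested. Of 13 granulosa markers 11 had a probe, 1 of 10 tested was called (Fst, higher, where 5.50% of all probes were called in either direction) and none had a negative log2 fold change (55.7% of all probes did), with a median of 0.32. Of 7 macrophage markers 5 had a probe, none was called and all 5 were negative (55.7% of all probes were), with a median of -0.28. C1qa (-0.38) was called lower with the block, as were 5.20% of all probes. Adgre1 was under the limit of 0.2 on 3 arrays. The summed macrophage level was 95.6 to 142 in vehicle and 86.0 to 116 in pioglitazone mice, and its part in the result was not tested. Upk3b, a marker of the ovarian surface epithelium, was called lower (-0.66, adjusted p = 0.837 in limma). It was the 1 called of 5 tested in its list, where 3.53% of all probes were called lower. Its values were near the limit of 0.2, at 0.305 to 0.368 in vehicle and 0.202 to 0.255 in pioglitazone mice.

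Cyp17a1, the theca enzyme that takes progesterone and pregnenolone on to androgens, was, unlike Akr1c18, highest in mouse 1 of each group. It was at 297, 17.7, 7.17 and 170 relative intensity units in vehicle mice 1 to 4 and at 228, 75.6, 9.07 and 77.9 in pioglitazone mice 1 to 4. Mice 1 and 4 of each group were above mice 2 and 3, the reverse of Akr1c18, though pioglitazone mice 4 and 2 were close (77.9 and 75.6). Its means were 123 and 97.7, a ratio of 0.795, while its log2 fold change was 0.23 with a standard error of 1.30, and it was lower in 2 of 4 pairs, so no direction was settled.

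The relatives of Akr1c18 and Hsd3b1 were examined because a short probe may also bind RNA of a similar gene. Akr1c20 was at 0.283, 5.06, 1.83 and 0.337 relative intensity units in vehicle mice 1 to 4 and at 0.258, 1.86, 0.949 and 0.352 in pioglitazone mice 1 to 4. This is the pattern of Akr1c18 over mice, and whether the 2 probes share target RNA was not tested. Akr1cl was at 97.9, 55.2, 18.3 and 109 in vehicle mice and at 53.2, 83.4, 74.7 and 142 in pioglitazone mice. Vehicle mouse 3 was lowest and pioglitazone mouse 4 highest in Akr1cl, and without vehicle replicate 3 its log2 fold change of 0.53 became -0.01. Akr1c14, a 3α-hydroxysteroid dehydrogenase that acts on reduced progestins, had means of 4.09 ± 1.93 and 5.81 ± 2.71 (SD, n = 4 each) and a log2 fold change of 0.47. Hsd3b2 (means of 1.35 and 1.18) and Hsd3b3 (0.748 and 0.620) had log2 fold changes of -0.17 and -0.23. Without vehicle replicate 3 these were -0.03 and -0.04. Of 14 relatives 13 had a probe and 10 were tested, 0 were called with or without the block, and 5 were negative, with a median of 0.01.

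**Figure D4:**
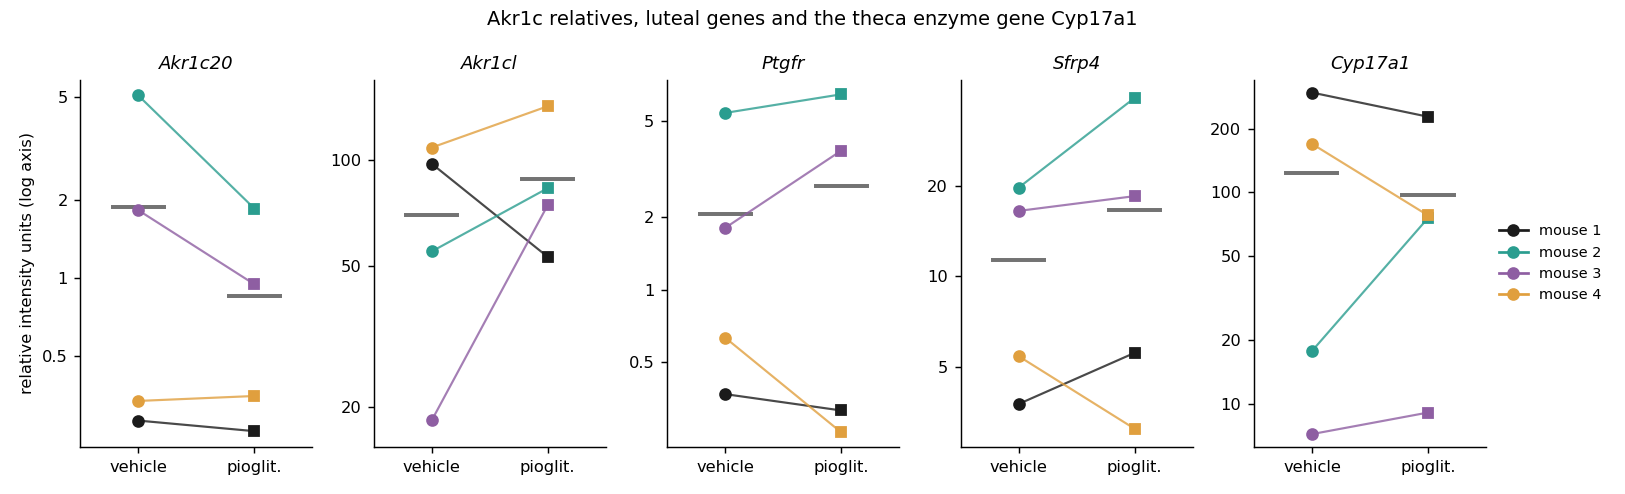
Relative intensity units (log axes) of Akr1c20, Akr1cl, Ptgfr, Sfrp4 and Cyp17a1 in each mouse, with lines joining mice with the same replicate number and grey bars for arithmetic group means (n = 4). Akr1c20, Ptgfr and Sfrp4 are high in mice 2 and 3 of both groups, and Cyp17a1 is highest in mouse 1 of both groups, at 297 and 228.

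Other genes along the pathway were taken from 5 lists. Of 66 listed places 55 had a probe and 51 were tested, of which 1 was called at an unadjusted p under 0.05 in limma (5.50% of all probes) and 31 were negative (55.7% of all probes), so neither count stood apart from the whole array. In the list of cholesterol supply 0 of 9 were called, with a median of -0.09. Apoe, which carries cholesterol between cells, had means of 59.6 ± 9.4 and 49.2 ± 11.5 (SD, n = 4 each) and a log2 fold change of -0.30. Stard6, of the family of STAR, was lower in each pioglitazone mouse than in every vehicle mouse, and in 4.59% of all probes the groups did not overlap either. Its means were 0.774 ± 0.0133 and 0.708 ± 0.0385 (SD, n = 4 each). The 2-sided exact permutation p was 0.0286, as for any probe without overlap. Its log2 fold change was -0.13, with an unadjusted p of 0.308 and an adjusted p of 0.883 in limma. Stard3, a late endosomal cholesterol transporter, was at 0.18 and Npc2, a lysosomal one, at -0.10 on the log2 fold change scale.

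Among 7 tested genes of mitochondrial import and electron transfer the median log2 fold change was -0.17. Acbd3, a Golgi protein that binds TSPO, was the called one, at 0.135, 0.155, 0.0915 and 0.138 relative intensity units in vehicle mice 1 to 4 and at 0.224, 0.192, 0.170 and 0.237 in pioglitazone mice 1 to 4. Of the 8 values 6 were under the limit of 0.2, among them all vehicle values, so no fold is given, and the adjusted p was 0.837 in limma. With values under 0.2 raised to 0.2 it was not called, and without pioglitazone replicate 4 both means were under 0.2 and it was not tested. Dbi, the acyl-CoA-binding protein that is also a TSPO ligand, had means of 129 ± 13.7 and 101 ± 22.01 (SD, n = 4 each). It was lower in all 4 pairs (12.9% of all probes were), with a log2 fold change of -0.37. Vdac1, the mitochondrial outer membrane channel, was likewise, with -0.32. Gramd1b, a sterol transporter, was at -0.24.

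Of 7 tested enzymes of later steroid steps 0 were called, with a median of -0.30. Hsd17b7, an enzyme of estradiol and cholesterol synthesis, was at -0.30 on the log2 fold change scale, Sult1e1, which sulfates estrogens, at -0.47, Hsd11b1, which regenerates glucocorticoids, at -0.38 and Hsd17b3, which makes testosterone, at -0.33. Sult1e1 was under 0.2 in 2 of 4 vehicle and 2 of 4 pioglitazone mice. Of 18 regulators and receptors 0 were called, with a median of -0.08. Foxo1, a forkhead factor of granulosa cells, was at -0.40 and Pgr, the progesterone receptor of ovulating follicles, at 1.6. Pgr was at 1.08, 0.083, 0.384 and 0.528 relative intensity units in vehicle mice 1 to 4 and at 1.41, 3.12, 0.599 and 0.574 in pioglitazone mice 1 to 4. Vehicle mouse 2 was under the limit of 0.2, and without vehicle replicate 2 the log2 fold change of Pgr was 0.88. In the blocked fit 2 of 18 were called (8.60% of all probes were), namely Crem, a cAMP-responsive factor, at -0.60 (unadjusted p = 0.00906) and Nr5a2, a nuclear receptor that drives steroidogenic genes, at 0.61 (unadjusted p = 0.0227). Nr5a2 was also called under quantile and cyclic loess normalization. Nr5a1, its relative, was at -0.21.

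**Figure D5:**
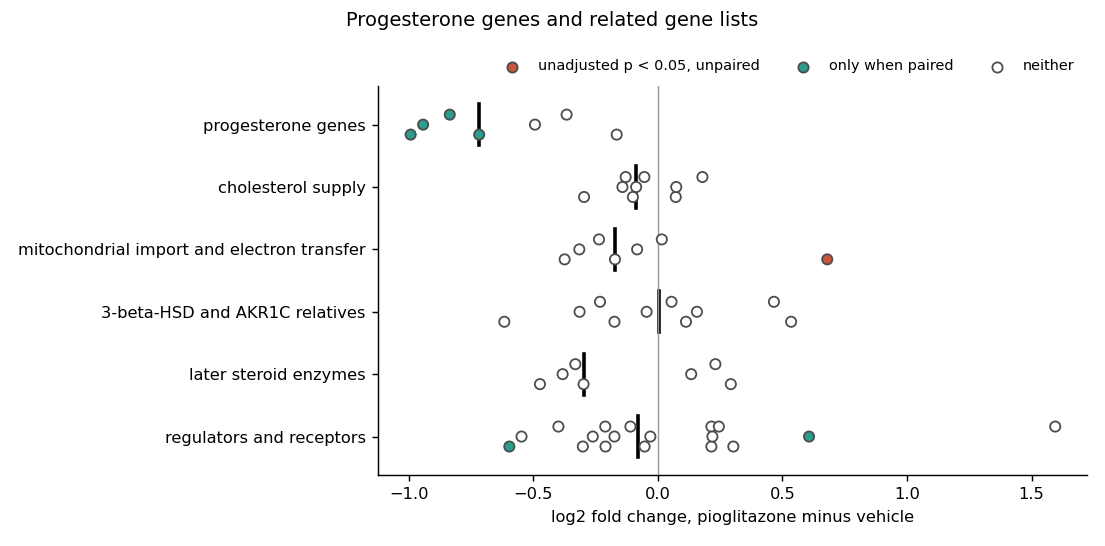
Log2 fold change (pioglitazone minus vehicle, horizontal axis) of the 7 progesterone genes and of the tested genes of 5 related lists, 1 point per gene, with a black bar at the median of each list, red for an unadjusted p under 0.05 in limma and green for one with pairing alone. The progesterone genes all lie below 0 with a median of -0.72, while the medians of the other lists lie between -0.30 and 0.01.

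The genes whose level over the 8 ovaries was most like that of 3 members were sought among 12022 genes with at least 0.5 relative intensity units on every array. Pearson's r of log2 values over the 8 ovaries is given as a description, with both groups pooled and no test, since these are the top of a ranked list. Star was most like Rasa3, a Ras GTPase-activating protein (r = 0.983), Lrp10, a lipoprotein receptor relative (0.968), and Adgrl4, an endothelial adhesion receptor (0.965). Cyp11a1 was most like Zfp207, a zinc finger protein of the spindle (0.993), Hnrnpc, which binds pre-mRNA (0.983), and Dlat, a subunit of pyruvate dehydrogenase (0.978). For Akr1c18 these were Adh1, an alcohol dehydrogenase (0.966), Ahcy, which hydrolyses S-adenosylhomocysteine (0.951), and Slc6a6, the taurine transporter (0.947). Adh1 was at 66.2, 137, 119 and 72.3 in vehicle mice 1 to 4 and at 57.1, 90.3, 93.2 and 62.1 in pioglitazone mice 1 to 4, so that it too was higher in mice 2 and 3 of both groups.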

How the data were processed

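Ovarian RNA of 8 LY mice was hybridised to CodeLink Whole Mouse Genome Bioarrays, 1 array per mouse. The deposited table holds 1 linear intensity per probe and mouse, made by the authors through background correction in the CodeLink software and scaling of every slide to its median, and array medians were 1.007 to 1.014. The division by gene medians that the methods also name left no trace in the table. Spots coded -9999 were missing.

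For the comparison, arrays were rescaled to a median of 1, a floor of 0.05 was set and log2 values were used. Tested probes had 3 or more values per group, with 1 group or both averaging 0.2 or higher. The comparison used limma 3.58.1 in R 4.3.3 with Benjamini-Hochberg adjustment over 30634 probes, and the procedure was tested on simulated data. "Called" stands for an unadjusted p under 0.05 in limma. The members and gene lists were chosen with earlier results of these data known. A list gene was represented by its brightest probe. The platform annotation gives 1 gene to 21615 of 36227 probes.

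The labels do not say what a shared replicate number means. With group means removed, arrays of the same number correlated across probes at 0.504, 0.18, 0.273 and 0.213, each over 0.1, and were treated as pairs, with the blocked fit given beside the unpaired one. The rule for named genes took the members, the called genes and up to 4 genes with the smallest p from each pathway list, the 3 genes closest in pattern to Star, Cyp11a1 and Akr1c18, and the extremes of marker lists. Akr1c20, Cyp17a1, Nr5a1, Ptgfr, Sfrp4 and Adipoq were named after their values were seen. Alternatives covered the floor, normalization, filter on dim probes, test, block and left-out arrays. The block was combined with a left-out pair or another normalization after seeing the data.

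Precision is limited by the 4 arrays in each group. Mice were housed 4 to a cage per the study's methods. Which mice shared a cage or litter was not given in the sources used here, so whether cage coincided with treatment is not known. The unpaired limma p-values set the group difference against the spread between mice of a group. Those with the block set it against the spread of differences between pairs. In both, limma draws this spread partly from all tested probes. Untreated lean mice were not analysed here.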

Additional observations from a re-analysis of the deposited data

Results flagged for a closer look

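In vehicle mouse 3 Hsd3b3, a relative of Hsd3b1, was at 1.08 relative intensity units, with the other 3 vehicle mice between 0.620 and 0.662. The gap was 0.909 of the range of its group. Without this mouse the log2 fold change of Hsd3b3 was -0.04 in place of -0.23. This was 1 of 54 groups of 4 checked, where chance gives about 1 in 20.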

How the results depend on the processing

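Of 189 combinations of a progesterone gene with an alternative, 163 kept the direction and the side of an unadjusted p of 0.05, 25 passed to the other side with the same direction and 1 reversed, Akr1c18 at 0.44 with array weights. That setting also took Star to -0.14, Cyp11a1 to -0.34, Scarb1 to -0.38, Tspo to -0.32 and Hsd3b1 to -0.20. Of 493 for the other named genes, 457 were kept and 6 reversed. The 7 progesterone genes were above 0.2 on every array. A changed floor, filter on dim probes or test, or the block over all mice, could not alter their log2 fold changes. Their direction was fixed in advance there, so the count of 163 does not measure how firm it was.

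With the replicate block, 2635 probes and 4 of the 7 genes had an unadjusted p under 0.05, namely Star (-0.94), Cyp11a1 (-0.83), Akr1c18 (-0.99) and Scarb1 (-0.72), as did 2 regulators, and the block changed no other call in the 5 pathway lists. With the block and quantile normalization 3 genes did (Star -0.80, Akr1c18 -0.97, Scarb1 -0.63), and with the block and cyclic loess 3 (Star -0.84, Cyp11a1 -0.72, Akr1c18 -0.92). With the block and without pair 1 there were 2 (Cyp11a1 -0.62, Akr1c18 -1.25), without pair 2 there were 3 (Cyp11a1 -0.88, Akr1c18 -0.78, Scarb1 -0.92), without pair 3 there were 4 (Star -1.25, Cyp11a1 -1.05, Akr1c18 -0.90, Scarb1 -0.93) and without pair 4 there were 3 (Star -1.08, Cyp11a1 -0.79, Akr1c18 -1.05). In these 4 fits the calls were 0 or 1 in cholesterol supply, 0 or 1 in mitochondrial import, 0 to 2 in the relatives, 0 or 1 in later enzymes and 1 to 3 in regulators, and Stard3 was at -0.017 without pair 3. For the block with a left-out pair or another normalization, the share of all probes called was not computed. The counts from those fits thus cannot be set beside the whole array.

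Without the block and with 1 mouse left out, the number of probes called ran from 737 (without pioglitazone replicate 4) to 2443 (without pioglitazone replicate 1), and of the 7 genes from 0 to 3. Log2 fold changes ran from -1.49 to -0.61 for Star, -1.19 to -0.37 for Cyp11a1, -0.98 to -0.30 for Scarb1, -0.063 to 0.303 for Stard3, -0.152 to 0.004 for Npc2 and -0.014 to 0.843 for Akr1cl. Calls ran from 0 to 1 in mitochondrial import and in the relatives, and from 0 to 2 in later enzymes and in regulators.

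Mitochondrial import had 0 calls with a floor of 0.2 or with at least 0.2 in every array and 2 with array weights. Regulators had 1 with quantile or cyclic loess normalization and with at least 0.2 in every array. Later enzymes had 1 with array weights, and cholesterol supply 1 with the methods' t-test and 1 with unequal variances. Npc2 was at 0.013 with cyclic loess and Stard3 at -0.091 with array weights. The cause was not tested.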
